A study of Mus musculus with 3 samples.

Results

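The genes described here are 10 genes known from adipose tissue, Adipoq, Cfd, Retn, Lep, Fabp4, Cidec, Pparg, Car3, Ucp1 and Cidea, as they were measured in pools of whole adult mouse hearts. They were chosen by name, and every probe that the array annotates with one of these symbols was taken, which gave 14 of the 41174 gene probes and 10 of the 28090 gene names on the array. Retn and Car3 had 2 probes each, Fabp4 had 3, and each of the other genes had 1. The probes of Lep and Pparg were printed as 10 spots each, and the other probes as 1 spot.

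The study asked how gene expression changes in the heart when Lrrc10 is deleted. Lrrc10 encodes a leucine-rich repeat protein of heart muscle cells, and the deletion is carried by every cell of the mouse. RNA from 2 hearts was pooled for each channel of 3 arrays with 2 colours. By the labels, Cy5 carried Lrrc10-/- hearts and Cy3 carried a reference pool from Lrrc10+/+ (WT) hearts on every array, and no dyes were swapped. Both genotypes were C57/BL6 mice of 2 months, fed and watered freely under a 12 hour light cycle, and the methods describe them as littermates. A value was thus an average over 2 hearts, and the hearts of a pool were not measured apart. The labels call Cy3 a reference pool and do not say whether a single WT pool served all arrays, while the methods speak of pooled hearts of either genotype and of 3 biological replicates. If it did, differences among WT hearts play no part in the tests given here.

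White fat cells store triglyceride in a single large droplet and secrete hormones into the blood, among them adiponectin (Adipoq), leptin (Lep), resistin (Retn) and the complement protease adipsin (Cfd). Brown fat cells burn lipid for heat through the mitochondrial uncoupling protein of Ucp1. Fat lies on and around the heart and the great vessels, and capillary cells and heart muscle cells also use some of the genes that serve lipid storage in fat, Fabp4 and Cidea among them.

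All 11 heart muscle markers, such as Myh6, Tnnt2, Myl2 and Ryr2, exceeded background clearly in each channel of every array, which fits the labelled tissue. The deleted gene went against the labels. On each array its probe had more signal in Cy5 than in Cy3, although the labels give Cy5 to Lrrc10-/- hearts, with log2 ratios of Cy5 over Cy3 of 4.91, 5.56 and 5.65 on replicates 1, 2 and 3. For this reason the channels are named by dye throughout, with Lrrc10-/- as the label of Cy5 and WT as that of Cy3, and every log2 ratio is Cy5 over Cy3. Between 28942 and 30810 of the 43379 gene spots of a channel were well above background. The log2 ratios of the arrays had a Pearson correlation over 29576 probes of 0.10 between replicates 1 and 2, -0.04 between replicates 1 and 3 and -0.18 between replicates 2 and 3, which is across probes and not across samples. The 3 arrays lay on 1 slide and were scanned together.

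A probe is a DNA of 60 bases, and a ratio depends on which stretch of a transcript it reads. The probe of Adipoq, the gene to which the others are compared below, is shown whole (gene at chr16:23146536-23157968 in GRCm38.p6):
Adipoq: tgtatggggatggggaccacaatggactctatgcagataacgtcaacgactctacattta
The first 30 bases are shown for the probes of the other genes with wide ranges, Cfd (chr10:79890853-79892655), the brighter probe of Car3 (chr3:14863538-14872381) and Cidec (chr6:113424634-113435760):
Cfd: aacatcacaaatggtaacatgacatcctga
Car3: acatgcaaccgcagtgccttttgacatgat
Cidec: tgcctgaatggacacagttcctgttctcct
The probes of Retn (gene at chr8:3655770-3659818) shared 22 bases, in capitals, so that they read neighbouring stretches of one transcript and are not independent of each other:
Retn brighter probe: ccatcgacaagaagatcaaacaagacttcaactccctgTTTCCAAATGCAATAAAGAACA
Retn dimmer probe: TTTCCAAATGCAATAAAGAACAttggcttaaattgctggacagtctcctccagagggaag
Of the Fabp4 probes (gene at chr3:10204342-10208616) the unsaturated one and the brightest one are shown, because they gave different ratios, and the longest run that they share was 7 bases:
Fabp4 unsaturated probe: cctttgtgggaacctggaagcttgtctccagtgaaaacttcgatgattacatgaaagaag
Fabp4 brightest probe: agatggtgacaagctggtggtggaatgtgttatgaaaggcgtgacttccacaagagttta
The probe of Ucp1 (gene at chr8:83290348-83298456) is shown as an example of the 2 genes, with Lep, that were not well above background:
Ucp1: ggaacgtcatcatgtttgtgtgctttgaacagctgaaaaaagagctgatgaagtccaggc
The share of G and C ran from 36.7% to 53.3% over the 14 probes, and the median over all 41174 gene probes was 40.0%. The array files give the sequence of a probe but not its place in the gene, so exon or untranslated region is not given here.

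Adipoq, Cfd, Car3 and Cidec differed widely between the arrays and not in one direction between the labelled genotypes. They were brighter in Cy5 on replicate 1 and brighter in Cy3 on replicate 3, and their means over the arrays lay near 0. In pooled tissue, fewer cells of a type and less RNA per cell cannot be told apart.

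Cfd, which encodes the complement protease adipsin, had the widest range of the 10 genes. On replicates 1, 2 and 3 its processed signal, an intensity with background subtracted, read 54.5, 223.7 and 287.1 for Cy3, while Cy5 read 262.0, 184.5 and 76.6. Cy3 was thus dim where Cy5 was bright, on replicate 1, and bright where Cy5 was dim, on replicate 3. The log2 ratios were 2.26, -0.28 and -1.91, which is 4.80-fold brighter in Cy5 on replicate 1 and 3.75-fold brighter in Cy3 on replicate 3. The range between the arrays was 4.17 on the log2 scale, or 18.0-fold, and only 0.210% of all tested probes had a range as wide. Among the 3429 tested probes of similar signal, that share was 0.175%. The mean log2 ratio was 0.03 ± 2.10 (SD, n = 3 arrays), with a 95% interval from limma of -1.49 to 1.55.

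Adipoq, which encodes the hormone adiponectin, gave signals of 22.8, 55.2 and 69.9 in Cy3 and of 65.4, 33.6 and 24.3 in Cy5. The probe was dim, and it was well above background on 2 arrays in Cy3 and on 3 in Cy5. Its log2 ratios were 1.52, -0.72 and -1.52, so the channels were 2.87-fold apart on replicates 1 and 3, in opposite directions. With normexp (offset 50) and loess in place of the deposited processing, the ratios on replicates 1 and 3 were smaller, at 0.41 and -0.21 for Adipoq, 0.99 and -0.75 for Cfd, 0.49 and -0.20 for Car3 and 0.62 and -0.20 for Cidec. An offset added to both channels makes the ratios of dim probes smaller by arithmetic alone. The mean of Adipoq was -0.24 ± 1.58 (SD, n = 3 arrays), with a 95% interval of -1.51 to 1.03. A range as wide as its 3.04 was seen in 0.869% of all tested probes and in 2.71% of those of similar signal.

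Cidec encodes a protein of the lipid droplet surface that lets droplets grow large. Its signals were 43.2, 96.7 and 85.9 in Cy3 and 146.7, 86.3 and 39.3 in Cy5, and all of these were well above background. The log2 ratios were 1.77, -0.17 and -1.13, with a mean of 0.16 ± 1.47 (SD, n = 3 arrays) and a 95% interval of -1.01 to 1.33.

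Car3 encodes a carbonic anhydrase that is abundant in the cytoplasm of fat cells and of slow muscle fibres. Its brighter probe gave 31.1, 67.4 and 76.1 in Cy3 and 118.9, 76.5 and 42.0 in Cy5, and was well above background on 2 arrays in Cy3 and on 3 in Cy5. The log2 ratios were 1.93, 0.18 and -0.86, with a mean of 0.42 ± 1.41 (SD, n = 3 arrays) and a 95% interval of -0.73 to 1.57. The dimmer Car3 probe was designed on another transcript record and did not follow it, with log2 ratios of -0.56, 1.18 and -0.92 at a mean signal of 29.1. The 2 probes of Car3 thus agreed in sign on replicates 2 and 3 and not on replicate 1.

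**Figure D1:**
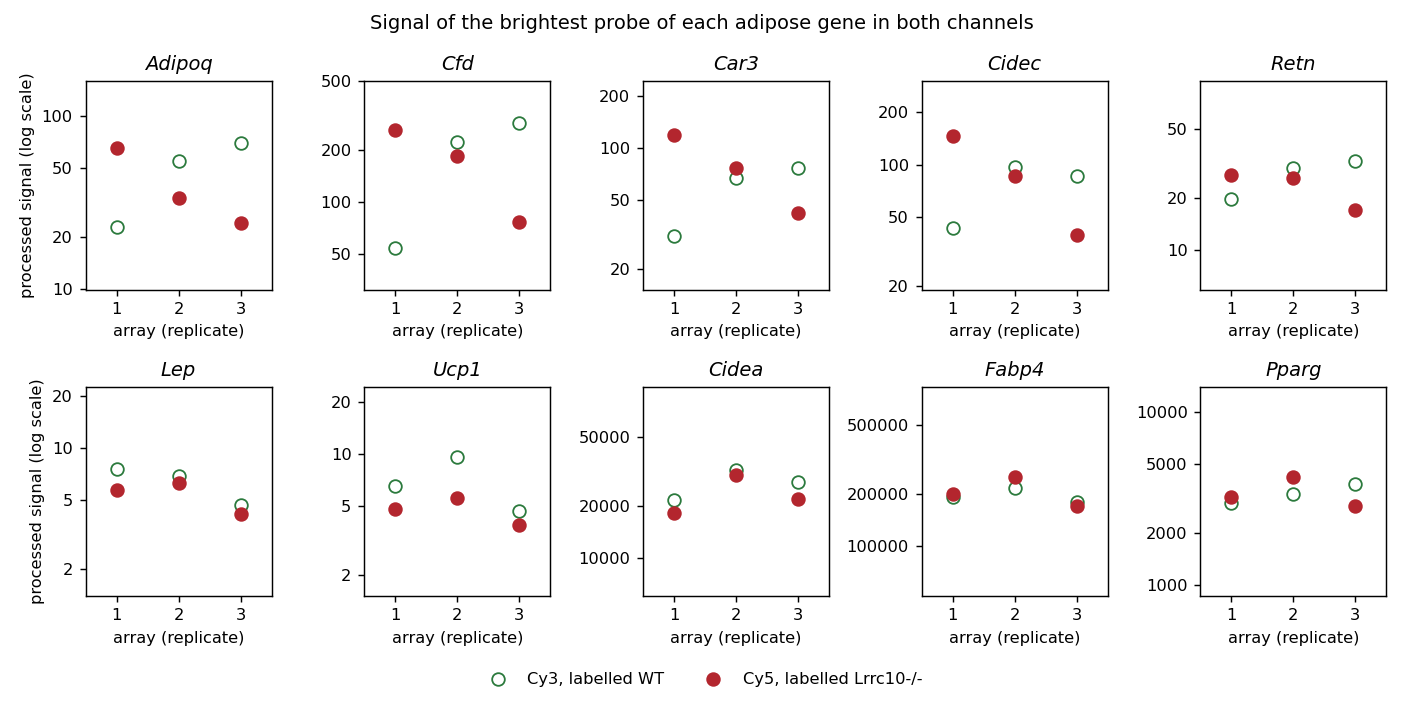
Processed signal of the brightest probe of each of the 10 genes (log axis, the same 16-fold span in every panel) on replicates 1, 2 and 3, with open green circles for Cy3 (labelled WT) and filled red circles for Cy5 (labelled Lrrc10-/-). In Adipoq, Cfd, Car3, Cidec and Retn the red circle is above the green one on replicate 1 and below it on replicate 3, while Lep and Ucp1 lie under a signal of 10 and were not well above background.

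Retn encodes the hormone resistin, made by fat cells in the mouse. Its brighter probe was near the lower limit, with 19.7, 29.8 and 32.8 in Cy3 and 27.0, 26.1 and 17.0 in Cy5, and it was well above background on 1 array in Cy3 and on 0 in Cy5. The log2 ratios were 0.46, -0.19 and -0.95, with a mean of -0.23 ± 0.70 (SD, n = 3 arrays). The overlapping dimmer probe, which was under the minimum mean signal of 20 and was not tested, gave 1.35, -0.32 and -0.34. Both Retn probes had the same sign on each array, but at this signal a range as wide as that of the brighter probe was seen in 38.8% of tested probes, so the Retn pattern does not stand apart from probes of its brightness.

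Lep and Ucp1 were not measured above background. The Lep probe, for the hormone leptin, had signals from 4.67 to 7.57 in Cy3 and from 4.13 to 6.22 in Cy5 as means of its 10 spots. On 6, 7 and 8 of the 10 Lep spots of replicates 1, 2 and 3 both channels carried a substitute value in place of a measured signal. Ucp1 gave 6.57, 9.58 and 4.70 in Cy3 and 4.85, 5.60 and 3.88 in Cy5. Neither gene was well above background in any channel of any array, and no ratio is given for them. Low transcript and a weak probe cannot be told apart there.

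Fabp4, Cidea and Pparg were bright, and the ratios of their brightest probes stayed within 0.42 of 0 on the log2 scale. Fabp4 encodes a fatty acid binding protein of fat cells that endothelial cells and macrophages also make. Its brightest probe had signals of 192820, 217606 and 180706 in Cy3 and of 201294, 252562 and 170423 in Cy5, and was saturated on 3 arrays in Cy5 and on 1 in Cy3. The ratios of 0.06, 0.21 and -0.08 can therefore understate a difference. Of the other Fabp4 probes, one was saturated on the same numbers of arrays and gave -0.36, -0.04 and -0.28. The probe that was not saturated gave 6815, 5595 and 13488 in Cy3 and 5004, 7741 and 7283 in Cy5, with log2 ratios of -0.45, 0.47 and -0.89 and a mean of -0.29 ± 0.69 (SD, n = 3 arrays). The sign of the Fabp4 mean thus depended on the probe. On no Fabp4 probe was the ratio above 1 in size on any array, and on replicate 1 the unsaturated probe was brighter in Cy3, unlike Adipoq, Cfd, Car3 and Cidec.

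Cidea, which encodes a lipid droplet protein of brown fat and of oxidative muscle, gave 21573, 32255 and 27758 in Cy3 and 18352, 30200 and 21927 in Cy5. It was the only one of the 8 tested genes that was brighter in Cy3 on all arrays by its brightest probe, with log2 ratios of -0.23, -0.09 and -0.34. The mean was -0.22 ± 0.12 (SD, n = 3 arrays), and 91.0% of all tested probes had a range at least as wide. With normexp background correction its mean was 0.016 after median centring and -0.43 after loess, so its sign against 0 depended on the normalization. After median centring the medians of all tested probes were 0.108, 0.105 and 0.201 on replicates 1, 2 and 3. Cidea, at -0.087, 0.098 and 0.037, lay below them on every array, as it did with the deposited processing.

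Pparg encodes the nuclear receptor that drives fat cell formation, and it is the target of the thiazolidinedione drugs. Signals were 2989, 3361 and 3819 in Cy3 and 3208, 4229 and 2853 in Cy5 as means of 10 spots. The 10 spots of an array agreed closely, with an SD of the log2 ratio of 0.033, 0.035 and 0.045 on replicates 1, 2 and 3. The means of the spots were 0.10, 0.33 and -0.42, and the spots of different arrays did not overlap. The SD between arrays was 0.39, which is far above the spread between spots. This was usual on these arrays: over the 190 tested probes with 10 spots the median SD was 0.059 between spots and 0.35 between arrays. The mean log2 ratio of Pparg was 0.004, with a 95% interval of -0.48 to 0.49.

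**Figure D2:**
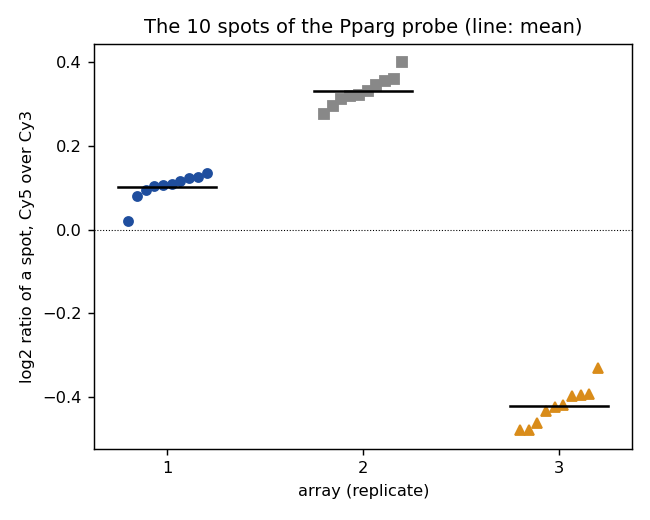
Log2 ratio, Cy5 over Cy3, of each of the 10 spots of the Pparg probe on replicates 1, 2 and 3 (points, in order of value) with the mean of the spots (line). The spots lie between 0.021 and 0.14 on replicate 1, between 0.28 and 0.40 on replicate 2 and between -0.48 and -0.33 on replicate 3.

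Across the 14 probes, no gene was called between the channels. By limma's test of the mean log2 ratio with Benjamini-Hochberg adjustment over all 29576 tested probes, 0 of the 8 tested genes and 0 of their 11 tested probes passed an adjusted p of 0.05, and 0 passed an unadjusted p of 0.05, which 1.54% of tested probes passed as brighter in Cy5 and 1.52% as brighter in Cy3. The adjusted p was 1.00 for each of the 8 genes. Of all tested probes, 0.00676% (2 probes) passed the adjusted p as brighter in Cy5 and 0.0% as brighter in Cy3, so few calls were to be had for any gene. Without replicate 3 the test called 411 probes in Cy5 and 134 in Cy3, and none of the 8 genes was among them. The p-values measure the spread between these arrays, and with 3 arrays an exact sign-flip permutation test cannot give a two-sided p below 0.25.

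The shares of these genes that were brighter in the same channel on all arrays were near those of all probes. None of the 8 tested genes was brighter in Cy5 on all arrays, against 10.0% of tested probes, and 1 was brighter in Cy3 on all arrays, against 11.0%. The study's own selection asked for a change of at least 1.2-fold in one direction and a p under 0.05. With this asked of each of the 3 arrays, 0.406% of tested probes were brighter in Cy5 and 0.507% in Cy3, and none of the adipose probes was among them.

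**Figure D3:**
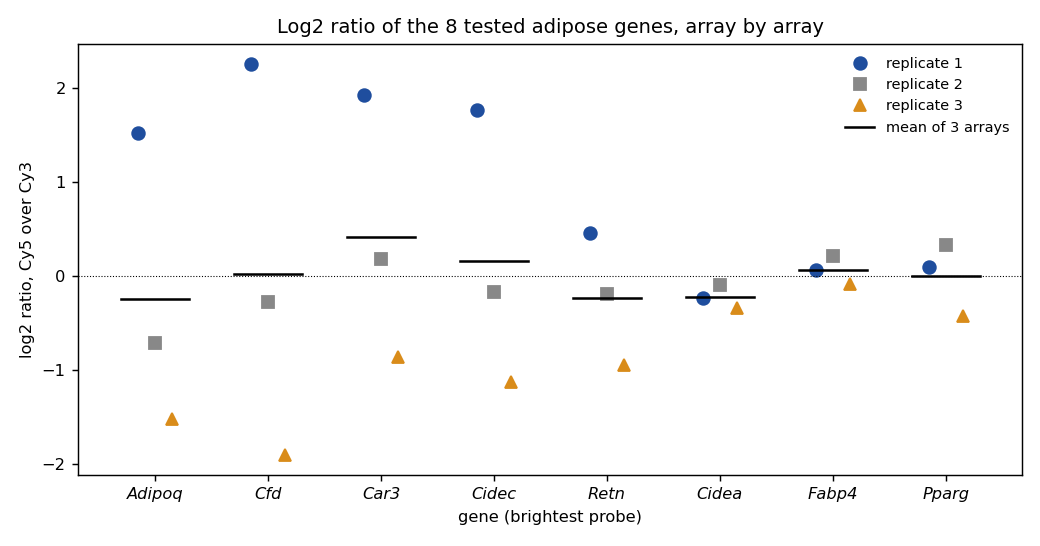
Log2 ratio, Cy5 (labelled Lrrc10-/-) over Cy3 (labelled WT), of the brightest probe of the 8 tested genes on replicates 1 (blue circles), 2 (grey squares) and 3 (orange triangles), with the mean of the 3 arrays as a black line. Adipoq, Cfd, Car3 and Cidec run from 1.52 or more on replicate 1 to -0.86 or less on replicate 3, around means between -0.24 and 0.42, while Cidea, Fabp4 and Pparg stay within 0.42 of 0.

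What the genes shared was the change between arrays, a pattern that was chosen after its values were seen and is given as a description. The log2 ratio was above 0 on replicate 1 and below 0 on replicate 3 for 7 of the 8 tested genes, all but Cidea, by their brightest probes, against 24.6% of all tested probes and 26.6% of the 11956 with a mean signal under 250. Fabp4 was among the 7 only by its saturated probe, at 0.06 and -0.08, and the other Fabp4 probes were below 0 on replicate 1. The count was 6, without Fabp4, with saturated probes left out, over all tested probes of a gene, or with normexp and loess. With normexp and median centring together this held for 4 of them, Adipoq, Cfd, Car3 and Cidec. In that setting the medians of all tested probes were themselves above 0, at 0.108 on replicate 1 and 0.201 on replicate 3. Pparg, at 0.42 and 0.13, lay above the first median and below the second, and Retn and Fabp4 did not. By their brightest probes, Adipoq, Cfd, Car3 and Cidec also had a deposited p under 0.05 on both arrays, against 2.54% of tested probes, and 3.11% of those with a mean signal under 250. Of the 11 tested probes of the 8 genes, 4 had it. The dimmer Car3 probe, at -0.56 on replicate 1, was not among these. The deposited p covers the measurement error of a single spot. It was 2.20e-05 on replicate 1 and 6.95e-07 on replicate 3 for Adipoq, 9.98e-14 and 3.67e-12 for Cfd, 4.06e-09 and 0.00146 for Car3, and 2.06e-09 and 2.30e-05 for Cidec. The opposite turn, below 0 on replicate 1 and above 0 on replicate 3 with such p-values, was seen in 2.50% of tested probes and in none of the 8 genes. The median log2 ratio of the 8 genes was 0.99, -0.13 and -0.90 on replicates 1, 2 and 3, and the median of all tested probes was 0.005, 0.006 and -0.007.

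**Figure D4:**
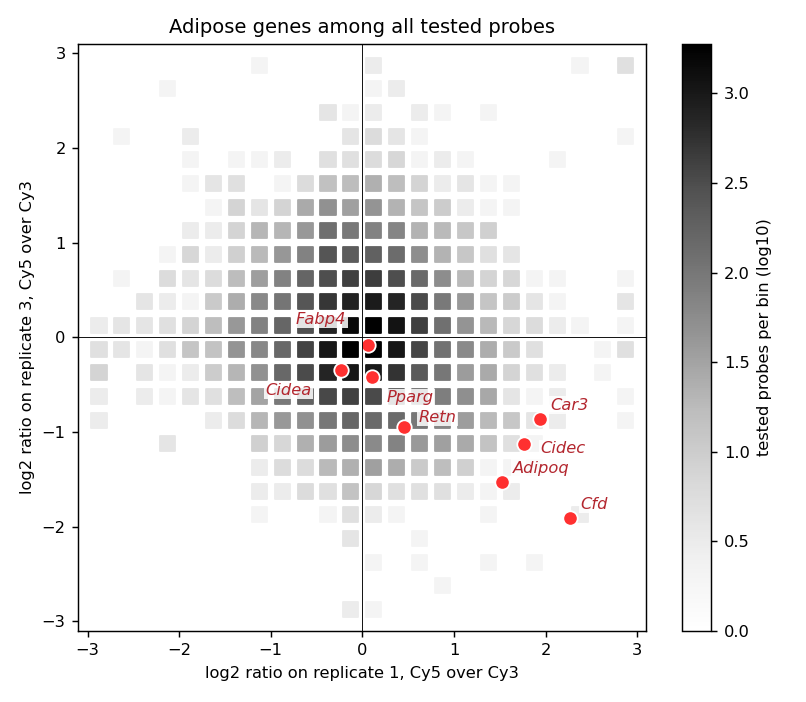
Log2 ratio on replicate 1 (horizontal axis) against replicate 3 (vertical axis), Cy5 over Cy3, with all 29576 tested probes in grey bins of 0.25 (darker for more probes, log10 scale, values beyond 3 in the outermost bins) and the brightest probe of the 8 tested genes in red. Adipoq, Cfd, Car3 and Cidec lie far out in the lower right, and Fabp4, Cidea and Pparg near the middle.

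Both channels moved, and in opposite directions. After Aquantile normalization, which puts the channels of all arrays on one log2 level scale, Cfd had Cy3 levels of 5.79, 7.54 and 8.40 and Cy5 levels of 8.05, 7.27 and 6.49 on replicates 1, 2 and 3. Its span was 6.08-fold over the Cy3 channels and 2.96-fold over the Cy5 channels. The methods name pooled hearts of either genotype and 3 biological replicates, but do not say outright that each array had its own Cy3 pool. If the Cy3 channels held a single pool, their span is not one between hearts. Adipoq spanned 3.56-fold in Cy3 and 2.32-fold in Cy5, Car3 spanned 2.77-fold and 2.50-fold, and Cidec spanned 2.25-fold and 3.30-fold. On this scale Adipoq, Cfd, Car3, Cidec and Retn were lowest on replicate 1 and highest on replicate 3 in Cy3, and highest on replicate 1 and lowest on replicate 3 in Cy5, which 1.50% of tested probes were. In Cy3, 8.77% of tested probes had a span as large as that of Adipoq and 2.99% as large as that of Cfd, and in Cy5 these shares were 5.87% and 2.56%. For Car3, Cidec and Retn the shares were 14.8%, 23.7% and 34.4% in Cy3 and 4.46%, 1.93% and 43.1% in Cy5, so the Cy3 spans of these genes and the Cy5 span of Retn were also common among other probes. The Cy3 level of a probe spanned a median of 0.72 on the log2 scale over the arrays and the Cy5 level 0.40. The level of Pparg spanned 0.75 in Cy3 and 0.07 in Cy5, a Cy5 span that 97.1% of tested probes reached or passed, so on this scale Pparg differed between arrays in the Cy3 channels more than in the Cy5 channels. In the processed signals, which are not on one scale between arrays, the wider span was in Cy5. There Pparg ran from 2989 to 3819 in Cy3 and from 2853 to 4229 in Cy5.

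The likeness to Adipoq was measured as the Euclidean distance between the 3 log2 ratios of a gene and those of Adipoq, over the 3 arrays. The distance was 0.72 for Cidec, 0.94 for Cfd, 1.19 for Car3 and 1.32 for Retn. Of the 20595 tested genes outside the 10, 4 were nearer to Adipoq than Cidec, 21 were nearer than Cfd, 63 were nearer than Car3 and 118 were nearer than Retn, a comparison added after the values were seen. Among the 18072 of them that were well above background in Cy3 and in Cy5 on every array, which Adipoq, Car3 and Retn themselves were not, these counts were 0, 4, 13 and 32. The distances of Pparg, Cidea and Fabp4 were 2.08, 2.21 and 2.25, and 23.5%, 37.0% and 42.2% of the tested genes were nearer. Among the genes well above background on every array, the 5 nearest were Rab6b, the unnamed transcript NAP123993-1, Angptl4, Defb29 and the transcript AK038685. Angptl4, a secreted inhibitor of lipoprotein lipase that is made in fat and in the heart, had log2 ratios of 1.32, -0.51 and -0.69, at signals of 6251, 16467 and 8763 in Cy3 and 15583, 11526 and 5435 in Cy5. Rab6b, a small GTPase of the Golgi, had 1.47, -0.09 and -1.16.

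Other genes listed for white fat, many of which other tissues also use, had medians closer to 0. Of 28 listed genes outside the 10, 24 were tested, and 9 of them (37.5%) were above 0 on replicate 1 and below 0 on replicate 3, against 24.6% of tested probes. None of the 24 had a deposited p under 0.05 on both arrays, and 0 were called by limma's adjusted p. Their median log2 ratio was 0.28, -0.07 and -0.03 on replicates 1, 2 and 3. Rbp4, the carrier of retinol in blood, was brighter in Cy3 on all arrays, with log2 ratios of -1.05, -1.21 and -0.60 and an adjusted p from limma of 1.00. Scd1, a fatty acid desaturase, had 0.55, 0.52 and -0.07, and Sncg, a synuclein found in fat and nerve, had 0.70, 0.21 and 0.33. Mest, a gene linked to fat expansion, had -0.39, -0.02 and -0.51. Plin1, the lipid droplet coat protein that is most restricted to fat cells, was named after its values were seen. It was dim, with a mean signal of 24.1, and its log2 ratios were 0.45, -0.94 and -0.51, above 0 on replicate 1 and below 0 on replicates 2 and 3, as in Adipoq. Adig, another gene of fat cells that was as dim (27.6) and was also named after its values were seen, had 0.50, 0.53 and -0.38 and so differed in sign from Adipoq on replicate 2.

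Of 18 genes of brown fat, 15 were tested, 4 of them (26.7%) changed from above 0 on replicate 1 to below 0 on replicate 3, against 24.6% of tested probes, and 0 were called. Of these 4, 1 had a deposited p under 0.05 on both arrays. It was Slc27a2, named after its values were seen, with log2 ratios of 0.55, 0.68 and -0.93. Many of the listed genes are also genes of heart muscle. Ppargc1a, a coactivator of mitochondrial genes, had log2 ratios of 0.17, 0.20 and 0.70. Cox7a1 and Fabp3, a subunit of cytochrome oxidase and a fatty acid binding protein of muscle, were saturated in both channels of all arrays and had -0.72, -0.34 and -0.28 and -0.78, -0.41 and -0.37. Cox8b, another cytochrome oxidase subunit, was saturated in 4 of its 6 readings and had -0.63, 0.29 and -0.57.

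The list for transcription in fat cells held 13 genes, both factors and cofactors, while Pparg and Cebpa stood in other lists. All 13 were tested and 0 were called, and their medians were 0.10, -0.15 and 0.06. Cebpb, an early factor of fat cell formation, had log2 ratios of 1.00, 0.15 and -0.20, while Cebpd had 0.24, 0.86 and -0.02. Klf15, a regulator of glucose uptake and lipid use in fat and heart, was brighter in Cy5 on all arrays, with 0.58, 0.32 and 0.20. Stat5a, a factor downstream of growth hormone, had 0.42, -0.24 and 0.35. A list of receptors and binding partners of fat hormones, with the insulin receptor beside them, held 7 genes, of which 0 were called. Adipor2, a receptor for adiponectin, had -0.04, -0.29 and -0.21, and Insr, the insulin receptor, had -0.19, -0.36 and -0.14. Cap1, known as a binding partner of resistin, had 0.03, -0.36 and 1.27, and C3ar1, a complement receptor, had 0.01, 1.19 and -0.38.

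Genes of tissues that lie on or beside a dissected heart were read array by array as well, and their part in the fat pattern was not tested. Of 10 tested genes of thymus and lymphoid cells, 4 were above 0 on replicate 1 and below 0 on replicate 3, and 3 of these, Cd3g, Dntt and Ptcra, had a deposited p under 0.05 on both arrays. Cd3g, a subunit of the T cell receptor complex, had log2 ratios of 1.14, 1.29 and -0.77, and Dntt, a polymerase of developing lymphocytes, had 0.78, 1.04 and -0.92. Both were brighter in Cy5 on replicate 2, where the log2 ratios were -0.72 for Adipoq, -0.28 for Cfd, -0.17 for Cidec and 0.18 for Car3. Cd3d and Cd79b, subunits of the T and B cell receptors, were brighter in Cy3 on all arrays, with -0.71, -0.85 and -0.66 and with -0.59, -0.43 and -0.58. Over the 11 listed genes, signals summed to 3542, 2636 and 7149 for Cy3 on replicates 1, 2 and 3, and to 5077, 4356 and 4339 for Cy5.

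The medians of the other lists differed less between replicates 1 and 3 than that of the 8 adipose genes. The red blood cell genes had medians of 0.63, 0.96 and -0.18 over 5 tested genes, of which 4 (80.0%) were above 0 on replicate 1 and below 0 on replicate 3. Hba-a1, an alpha globin that was saturated in 2 of its readings, had 0.96, 0.96 and -0.02. Alas2, the first enzyme of heme synthesis in red cells, had 0.63, 1.04 and -0.32. Hbb-b1, a beta globin named after its values were seen and saturated on some arrays, was brighter in Cy3 on all arrays, with -0.13, -0.19 and -0.61. The same turn was seen in 5 of 8 endothelial genes (62.5%) and in 4 of 8 fibroblast genes, of which 0 and 1 had a deposited p under 0.05 on both arrays, and in the red cell list 0 had. The atrial genes Myl7 and Sln were far brighter in Cy5 on replicate 2 alone, with log2 ratios of -0.21, 3.41 and -1.27 and of 0.08, 3.69 and -1.15, and the list had medians of -0.15, 0.25 and -0.26. Nppa, the atrial natriuretic peptide of the same list, was brighter in Cy3 on all arrays, with -0.89, -0.61 and -0.82 and an adjusted p from limma of 1.00, and Myl4, an atrial myosin light chain, had -0.12, 1.41 and 0.23. Msln, a surface protein of the mesothelium that covers the heart, was brighter in Cy3 on all arrays, with -1.43, -1.75 and -1.15 and an adjusted p from limma of 0.608. Of the 6 tested genes of that list, 3 were brighter in Cy3 on all arrays, Msln and the dim Upk3b (-1.28, -1.96 and -0.84) and Krt19 (-0.62, -1.25 and -0.60), which were named after their values were seen. The other tested genes changed sign between arrays, with 0.32, -0.23 and -0.23 for Wt1, 0.11, -0.55 and 0.29 for Tbx18 and 0.19, -0.03 and 0.45 for Tcf21, and its medians were -0.25, -0.90 and -0.42. In the lung list only Scgb1a1 of 7 genes was tested, with 0.45, -0.28 and -0.13, and the surfactant genes Sftpc, Sftpa1, Sftpb and Sftpd lay under the minimum signal. Skeletal muscle had medians of 0.08, -0.10 and -0.02, macrophages of -0.07, 0.16 and 0.05, endothelium of 0.15, -0.57 and -0.30, and fibroblasts of 0.34, 0.01 and -0.05. Heart muscle genes had 0.03, -0.42 and -0.19, and 0 genes of any of these lists were called.

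**Figure D5:**
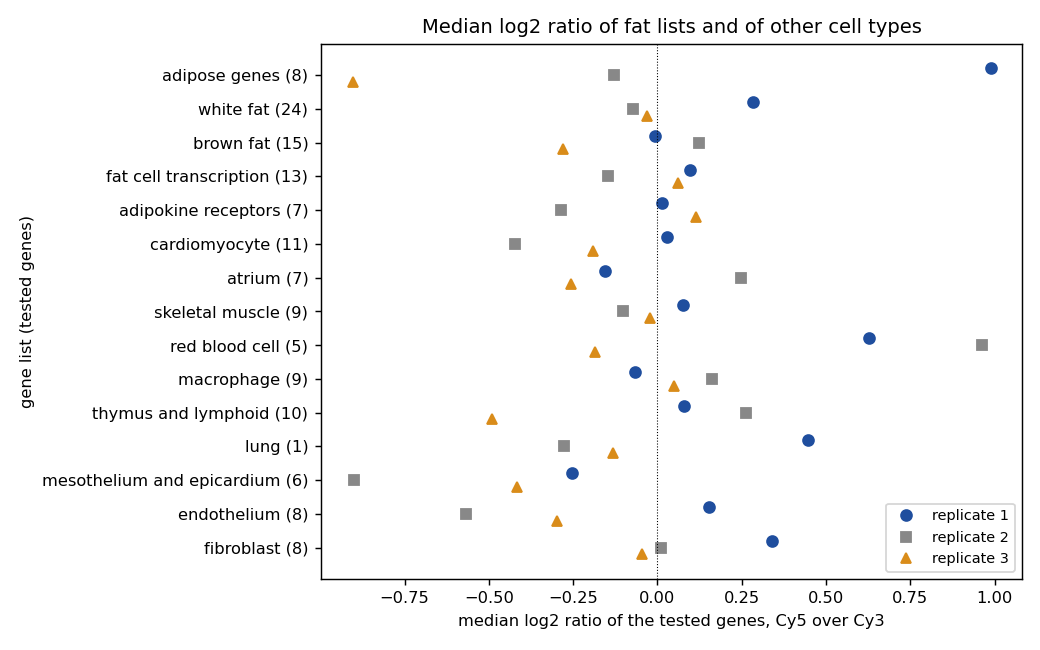
Median log2 ratio, Cy5 over Cy3, of the tested genes of each list (their number in parentheses) on replicates 1 (blue circles), 2 (grey squares) and 3 (orange triangles). The 8 adipose genes run from 0.99 on replicate 1 to -0.90 on replicate 3, and the other white fat genes from 0.28 to -0.03.

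Promoters from a RefSeq table were read for 7 of the 10 genes, with 10 start sites in all, and Cidea was left out beforehand. The 250 bases before each start were read for letters known from fat cell regulation. The promoters of Adipoq (chr16:23146286-23146535, plus strand), Cfd (chr10:79890603-79890852, plus strand) and the inner start of Cidec (chr6:113434765-113435014, minus strand), all in GRCm38.p6, are shown because these genes moved together between the arrays. Capitals mark any match, on either strand, to the E-box CANNTG, the CCAAT box CCAAT, the C/EBP letters TTGCNNAA or the nuclear receptor hexamer AGGTCA:
Adipoq promoter: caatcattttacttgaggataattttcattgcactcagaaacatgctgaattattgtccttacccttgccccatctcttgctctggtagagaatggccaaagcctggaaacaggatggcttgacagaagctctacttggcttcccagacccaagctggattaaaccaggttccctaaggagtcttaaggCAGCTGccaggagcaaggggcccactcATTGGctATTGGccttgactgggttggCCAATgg
Cfd promoter: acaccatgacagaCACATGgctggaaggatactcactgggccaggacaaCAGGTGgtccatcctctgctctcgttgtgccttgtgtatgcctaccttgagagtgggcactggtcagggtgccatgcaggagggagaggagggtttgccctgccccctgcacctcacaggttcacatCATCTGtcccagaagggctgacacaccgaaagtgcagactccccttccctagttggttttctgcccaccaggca
Cidec promoter: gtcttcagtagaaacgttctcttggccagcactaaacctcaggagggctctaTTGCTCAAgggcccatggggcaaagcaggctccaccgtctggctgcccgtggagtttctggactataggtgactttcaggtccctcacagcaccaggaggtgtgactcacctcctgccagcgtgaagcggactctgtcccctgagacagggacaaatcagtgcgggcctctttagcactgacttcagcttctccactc
Adipoq held 3 CCAAT boxes and 1 E-box, Cfd held 3 E-boxes, and the inner start of Cidec held 1 match to the C/EBP letters. The E-box was found in 66.2% of all 32851 promoters of the table, CCAAT in 33.9%, the C/EBP letters in 9.56% and the hexamer in 14.0%. Of the 10 start sites, 7 held an E-box and 3 each held CCAAT, the C/EBP letters and the hexamer. The outer start of Cidec, which is not printed, held 1 E-box, while its inner start held none. The E-box was about as frequent in the 10 start sites as in all promoters, so it does not set these genes apart.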

How the data were processed

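RNA from pools of 2 hearts was measured on 3 Agilent whole mouse genome arrays (4x44K). For each array the authors deposited a table of Agilent Feature Extraction. The mean signal and the local background in it are intensity values as scanned, and the processed signal intensity had local background subtracted and the dyes normalized within each array, per the file headers. The deposited log10 ratio divides the processed Cy5 signal by the processed Cy3 signal. The deposited p-value tests this ratio for a single spot. The deposited flags, of another kind, mark spots that are well above background, saturated or outliers. A second table by the authors repeats the log10 ratios.

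Outlier spots were left out, ratios were converted to log2, and repeated spots of one probe were averaged. Probes with a ratio on all arrays and a geometric mean processed signal over both channels of at least 20 were tested, 29576 probes in all. The mean log2 ratio was tested against 0 with limma 3.58.1 in R 4.3.3 (eBayes with an intensity trend, two-sided, Benjamini-Hochberg adjustment), a step tested on simulated data. The brightest probe stood for a gene. Similar signal means within 0.5 on the log2 scale. In each list, at most 4 genes well above background were named, by size of the mean ratio. Alternatives were another background correction (normexp, offset 50) with loess or median centring, other signal minima (none, 50), another variance model, the methods' t-test, outliers kept, saturated probes left out, all probes of a gene, the second table, and leaving out an array. The number of arrays limits the precision. The genes and lists were chosen with earlier results of these data known.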

Additional observations from a re-analysis of the deposited data

How the results depend on the processing

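No adipose gene was called under any alternative, with a lowest adjusted p of 0.182, and of 96 gene means under the alternatives 81 kept their direction and 15 changed it. Many of the 81 could not change, since another signal minimum, variance model or test leaves a mean as it is. The second table and the kept outliers also gave the same means. With normexp and loess the mean of Adipoq turned to 0.055, of Fabp4 to -0.24 and of Pparg to -0.011, and with normexp and median centring that of Adipoq turned to 0.012 and of Cidea to 0.016. With median centring both means still lay below the medians of all tested probes, given below, so they turned against 0 only. Fabp4 was also -0.29 with saturated probes left out and -0.15 over all its tested probes. When an array was left out the mean ran from -1.12 (without replicate 1) to 0.40 (without replicate 3) for Adipoq, -1.09 to 0.99 for Cfd, -0.34 to 1.06 for Car3, -0.65 to 0.80 for Cidec, -0.57 to 0.13 for Retn, -0.011 to 0.14 for Fabp4 and -0.16 to 0.22 for Pparg. The median of the 10 gene means, with Lep and Ucp1 counted, was -0.02 and ran from -0.36 to 0.18. Over the 8 tested genes, without Lep and Ucp1, which were not above background, it was 0.015. Probes called in Cy5 numbered 1 with normexp and loess, 0 with no minimum signal, 1 with a minimum of 50, 0 by the methods' t-test and 0 to 411 when an array was left out, and those in Cy3 0 to 134. Adipose genes brighter in Cy5 on all arrays were 2 with normexp and median centring (Fabp4 and Pparg) and 0 to 3 with an array left out. Those brighter in Cy3 were 2 with normexp and loess, 3 with normexp and median centring, and 1 to 5 with an array left out (5 without replicate 1). With normexp and median centring all tested probes together had medians of 0.11, 0.10 and 0.20 on replicates 1, 2 and 3, and the count above 0 on replicate 1 and below 0 on replicate 3, an alternative added after seeing the data, was 4. With normexp (offset 50) and loess together, Cfd and Adipoq had smaller ratios (Cfd 0.99, -0.04 and -0.75, Adipoq 0.41, -0.03 and -0.21). For dim probes the offset alone makes a ratio smaller. Causes were not tested. The ratio within an array already pairs its channels. No paired analysis was possible because, beyond this, there is 1 group of arrays. Signal over background limits Adipoq, Car3, Retn, Lep and Ucp1.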
